A study of Mus musculus with 12 samples.

Results

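The genes described here handle iron in the liver: the hormone hepcidin and its upstream control (Hamp, Bmp6, Hfe, Tfr2), iron uptake and release (Tfrc, Slc40a1, Cp), and iron storage and heme breakdown (Fth1, Ftl1, Hmox1). They were taken by symbol from a table of read counts for 41708 genes. Of 10 symbols, 9 matched a gene, and all 9 passed the filter on low counts that left 12615 genes for testing. Ftl1, the ferritin light chain, was not analysed here.

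The study asked what loss of Ube4a, a ubiquitin chain elongation factor, does to gene expression in the liver of fasted mice. The 7 knockout livers (LKO) came from Ube4a flox/flox mice crossed with Albumin-Cre mice, and the 5 control livers (flox) from mice labelled Ube4a flox/flox. All mice were on a C57BL6/J background and had been fasted for 16 h, and the labels state no age or sex. The Albumin promoter drives Cre mainly in hepatocytes, with some activity known in bile duct cells, while RNA was taken from whole liver. The libraries held 13399874 to 16525053 counts.

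Hepatocytes store iron in ferritin and secrete hepcidin, which binds the iron exporter ferroportin on macrophages, gut cells and hepatocytes and has it degraded. Hepcidin transcription is driven by BMP ligands from sinusoidal endothelial cells through SMAD proteins, by HFE and transferrin receptor 2 as sensors of transferrin-bound iron, and by IL6 through STAT3. Inside the cell, iron regulatory proteins bind hairpins in messenger RNAs called iron-responsive elements. Binding in the 5′ untranslated region blocks translation of ferritin and ferroportin, and binding in the 3′ untranslated region stabilises the transferrin receptor message.

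These elements are shown because they mark messages of the group on which iron regulatory proteins can act, through message stability or through translation. They do not cover control of transcription, the route described above for hepcidin. Untranslated regions of the GENCODE M21 transcripts (build GRCm38) were searched on the transcript strand for a C, 5 bases, the loop CAGTGN and 5 more bases, where the runs of 5 bases can pair. Of 21964 genes searched, 0.71% held a match, and of the 10 iron genes 4 did. The capitals mark the loop.
Fth1, 5′ region, chr19:9982732-9982761, plus strand: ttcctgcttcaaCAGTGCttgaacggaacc
Ftl1, 5′ region, chr7:45459778-45459807, minus strand: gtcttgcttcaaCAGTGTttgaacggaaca
Slc40a1, 5′ region, chr1:45925464-45925493, minus strand: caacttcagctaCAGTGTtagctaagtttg
Tfrc, 3′ region, chr16:32631219-32631248, plus strand: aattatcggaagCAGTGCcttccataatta
Tfrc, 3′ region, chr16:32631598-32631627, plus strand: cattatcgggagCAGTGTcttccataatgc
Tfrc, 3′ region, chr16:32631663-32631692, plus strand: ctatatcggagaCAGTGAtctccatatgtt
Tfrc, 3′ region, chr16:32631710-32631739, plus strand: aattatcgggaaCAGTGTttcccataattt
Fth1, Ftl1 and Slc40a1 thus held 1 match each, upstream of the coding sequence, and Tfrc held 4, all downstream of it.

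The targeted gene followed the labels. Ube4a averaged 26.6 ± 3.45 CPM (counts scaled to library size) in LKO livers and 134 ± 11.6 CPM in flox livers (SD, n = 7 and n = 5), with no overlap and a two-sided exact permutation p of 0.00253. In markers of some other cell types, 2 control livers (flox replicates 4 and 5) differed from the remaining 10. This did not hold for cholangiocyte markers, which summed to 44.5 and 49.3 CPM in these 2 livers and to 38.0 to 62.7 CPM in LKO livers. The 10 neutrophil markers summed to 0.139 to 1.77 CPM in LKO livers, to 282 and 445 CPM in flox replicates 4 and 5, and to 0.153 to 0.839 CPM in flox replicates 1 to 3, where Ngp, Ltf, Mmp8, Cxcr2 and Mpo were at 0 in 3 of 3. The 12 Kupffer cell and macrophage markers, all detected in every liver, summed to 118 to 334 CPM in LKO livers, to 740 and 1060 CPM in flox replicates 4 and 5, and to 52.1 to 161 CPM in the other 3. Fold changes are therefore also given without this pair, for the iron genes and for part of the pathway genes. The part of the pair in each result was not tested. The 9 hepatocyte markers, Alb among them, were detected in every library and summed to 91361 to 125824 CPM in LKO livers and to 89297 to 116566 CPM in flox livers.

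None of the 9 iron genes passed the threshold between LKO and flox livers. With edgeR's quasi-likelihood test and an adjusted p under 0.05, 0 of 9 were called, where 0.00793% of all genes tested were (Ube4a alone). DESeq2 also called 0 of the 9, although over all genes it called more than edgeR did, as given below. Limma voom called 0 of the 9 and, over all genes, Ube4a alone. Without flox replicates 4 and 5 edgeR again called 0 of 9, against 0.00781% of all genes. At an unadjusted p under 0.05 there was 1, Hmox1, against 7.64% of all genes tested. The median log2 fold change of the 9 genes was -0.08, with 3 positive and 6 negative, beside -0.01 over all genes tested. Without flox replicates 4 and 5 it was 0.112, with 5 positive and 4 negative. The log2 fold change without the pair was 0.14 for Hamp, -0.04 for Hfe and -0.08 for Tfr2. It was 0.34 for Tfrc, 0.27 for Slc40a1 and -0.15 for Fth1, and that of Bmp6, Cp and Hmox1 is given below. In all 9 the groups overlapped, while 0.293% of all genes tested lay wholly higher in LKO livers and 0.19% wholly lower. How tightly each gene was measured differed widely, so the size of change that the data leave room for is given gene by gene.

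**Figure D1:**
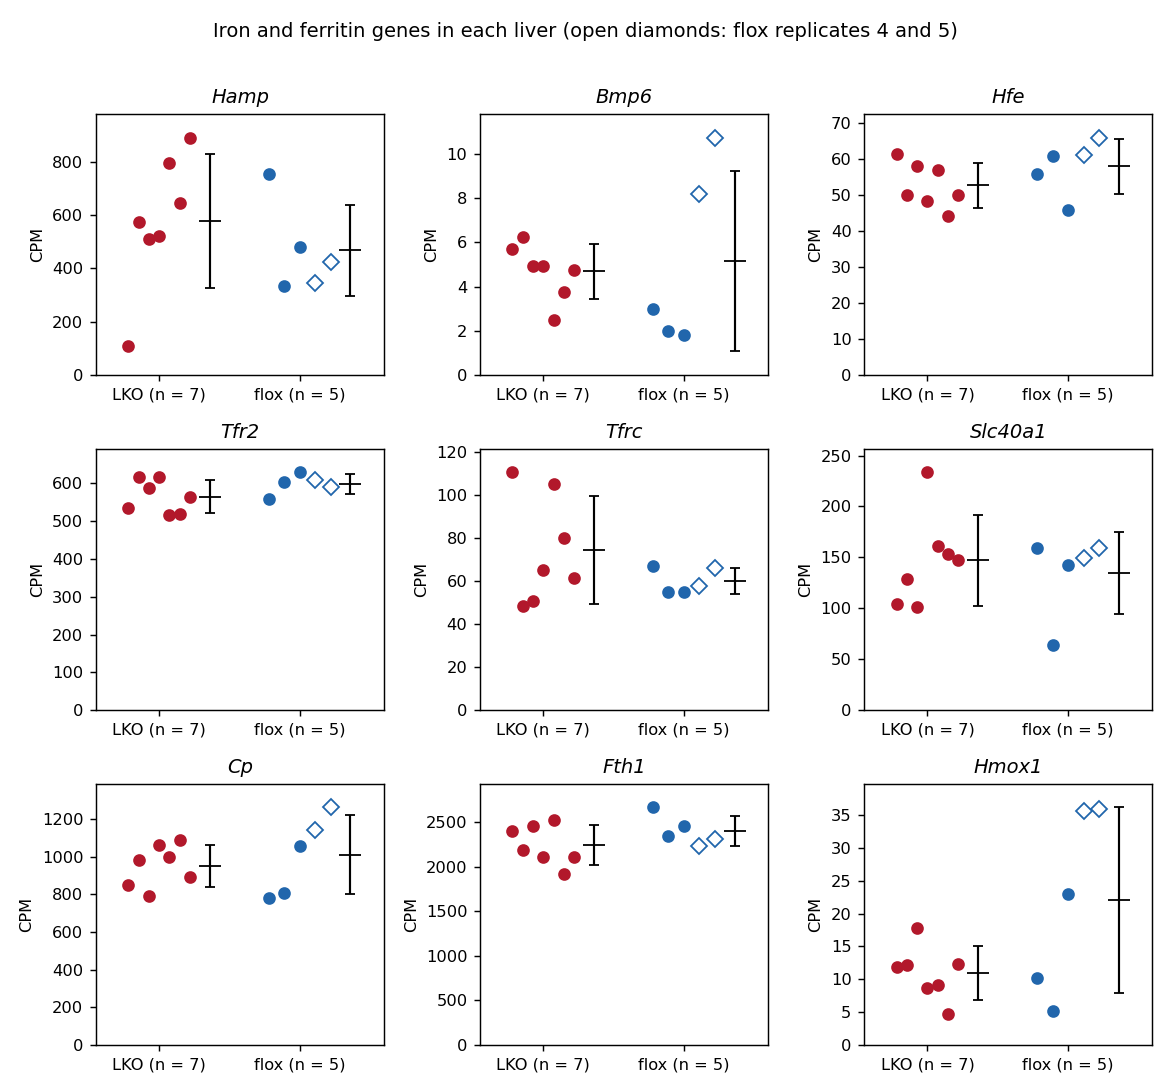
Level of each of the 9 iron genes in every liver, in CPM on linear axes that start at 0, with LKO livers on the left and flox livers on the right of each panel. Points are livers, open diamonds are flox replicates 4 and 5, and the bars beside them give the mean and SD; the groups overlap in every panel, and Hamp is lowest in 1 LKO liver at 110 CPM.

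Hamp, which encodes hepcidin, varied widely between livers. The gene (MGP_C57BL6NJ_G0032503) spans chr7:30988844-30990258, minus strand. Gene positions here and below follow the C57BL/6NJ strain annotation that the table carries. LKO livers ran from 110 CPM through a median of 574 CPM to 890 CPM, and flox livers held 755, 333, 479, 345 and 424 CPM in replicates 1 to 5. The lowest and the highest of the 12 livers were both LKO, replicates 1 and 7, which differed 8.10-fold, while the flox livers spanned 2.27-fold. The wide LKO span rested on replicate 1, as LKO replicates 2 to 7 held 574, 509, 520, 795, 646 and 890 CPM. Flox replicates 2 to 5 lay below all of these and flox replicate 1 among them, a split picked out after the values were seen. Means were 578 ± 250 CPM in LKO livers and 467 ± 171 CPM in flox livers (SD, n = 7 and n = 5). This gave a log2 fold change of 0.31 (SE 0.39, adjusted p = 0.872 in edgeR) whose 95% confidence interval of -0.54 to 1.16 spans 0.686 to 2.23 times the flox level. The liver-to-liver SD of Hamp within groups, 0.84 on the log2 scale, exceeded that of 98.8% of the genes averaging over 10 CPM. The paralog Hamp2 held 0 to 11 counts. In the table its interval, from 30960752 to 30990756, contains that of Hamp on the same strand, and the labels do not say how reads shared by both were counted.

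The Hamp promoter carries the elements through which both of its main inputs are known to act. In the RefSeq promoter table (build GRCm38.p6), 100 bases from 150 to 51 bases before the start of Hamp, chr7:30944080-30944179 on the minus strand, read as follows, with the core of a BMP response element (GGCGCC) and a STAT3 element (TTCTTGGAA) in capitals.
Hamp promoter: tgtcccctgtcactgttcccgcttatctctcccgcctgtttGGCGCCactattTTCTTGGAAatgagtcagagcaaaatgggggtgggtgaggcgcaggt
The BMP element begins 109 bases and the STAT3 element 97 bases before the start. Searched on both strands over windows of the same length, 250 bases before to 50 after the start, GGCGCC occurred in 11.9% of 32851 promoters and TTCTTGGAA in 0.417%. Of the 8 iron genes with an entry, Hamp and Tfrc held the first and Hamp alone the second.

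LKO replicate 1, the liver with the lowest Hamp, also had the lowest level of some genes of BMP and SMAD control but not of others, a feature looked for after its Hamp level had been seen. Id1, a SMAD target, measured 5.81 CPM there and 8.52 CPM in the next lowest liver, flox and LKO together. Atoh8, another target that in mouse liver follows iron, measured 21.2 CPM there and 25.5 CPM in the next lowest, and Smad7, the feedback inhibitor of the pathway, 9.81 and 12.02 CPM. Of 18 tested genes of BMP and SMAD control, 7 had their lowest level in this liver, or 38.9%, against 12.05% of all genes tested: Id1, Atoh8, Smad7 and Smad9, and also Bmpr2, Furin and Smad4, which are not known as induced targets. Smad6, another inhibitory SMAD that BMP signalling induces, was at 10.85 CPM there, the highest LKO value, and Acvr1, a BMP receptor, and Hfe2, which encodes hemojuvelin, were higher there than in any other liver. The ligand gene itself was not low there: Bmp6 measured 5.68 CPM in LKO replicate 1, the second highest LKO value. Among LKO livers, replicate 1 also had the highest sums of sinusoidal endothelial markers, 339 CPM, and of Kupffer cell and macrophage markers, 334 CPM, and their part in these values was not tested. Without this liver the log2 fold change of Hamp was 0.48, with an adjusted p of 0.686 in edgeR. With any 1 liver left out it ranged from 0.17 to 0.54, so leaving out another liver raised it further.

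Bmp6 (chr13:37894324-38052013, plus strand), the endothelial ligand that iron induces in the liver, was the gene whose direction rested most on flox replicates 4 and 5. LKO livers ran from 2.51 through a median of 4.94 to 6.23 CPM, and flox replicates 1 to 5 held 2.997, 1.98, 1.83, 8.18 and 10.7 CPM. The flox livers thus lay on both sides of the LKO range, with replicates 4 and 5 above every LKO liver and replicates 2 and 3 below every LKO liver. Means were 4.69 ± 1.23 CPM in LKO livers and 5.14 ± 4.06 CPM in flox livers, on 24 to 176 counts. The fitted difference was -0.14 on the log2 scale (SE 0.42, interval -1.05 to 0.76, adjusted p = 0.956 in edgeR). Without the pair it was 1.03 (0.43 to 1.64), with an unadjusted p of 0.00258 in edgeR where 5.27% of genes were under 0.05, and an adjusted p of 0.903. The pair was left out for its marker sums, seen beforehand, and holds the highest Bmp6 values. Leaving it out therefore raises the fold change, and this p and interval serve only as a description.

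Bmp2, the other endothelial BMP ligand of hepcidin control, was also highest among flox livers in replicates 4 and 5, although LKO replicate 1 exceeded flox replicate 4. It measured 5.68 to 23.4 CPM in LKO livers and 8.81, 4.88, 4.59, 21.9 and 30.6 CPM in flox replicates 1 to 5, with a log2 fold change of -0.19 (adjusted p = 0.948 in edgeR) and of 1.03 without the pair. The 10 sinusoidal endothelial markers, Bmp2 among them and all detected in every liver, summed to 99.5 to 339 CPM in LKO livers, 375 and 508 CPM in flox replicates 4 and 5 and 112 to 142 CPM in flox replicates 1 to 3. LKO replicate 5 had both the lowest marker sum and the lowest Bmp6 among LKO livers. In whole liver, fewer cells of a type and less RNA per cell cannot be told apart.

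The hepatocyte sensors Hfe and Tfr2 had narrow intervals. Hfe (chr13:21918436-21925285, minus strand) encodes an MHC class I-like protein that binds transferrin receptors. It ran from 44.1 through 50.03 to 61.3 CPM in LKO livers and held 55.9, 61.0, 45.9, 61.2 and 66.0 CPM in flox livers, with overlapping groups. Its log2 fold change was -0.14 (standard error 0.10, interval -0.35 to 0.08, adjusted p = 0.764 in edgeR). Tfr2 (chr5:147594872-147614904, plus strand), a transferrin receptor that hepatocytes use in sensing, had the smallest spread of the group. It ran from 517 through 563 to 618 CPM in LKO livers and held 559, 603, 629, 610 and 590 CPM in flox livers. Only 7.41% of genes over 10 CPM had a smaller within-group SD. The log2 fold change was -0.08 (standard error 0.07, adjusted p = 0.803 in edgeR), and its interval ran from -0.23 to 0.07, that is from 0.850 to 1.05 times the flox level.

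Tfrc (chr16:31348308-31375753, plus strand), transferrin receptor 1, the uptake receptor whose message is stabilised through the 3′ elements printed above, varied mainly among LKO livers. It measured 111, 48.5, 50.6, 65.1, 105, 80.0 and 61.3 CPM in LKO replicates 1 to 7, and 67.3, 54.9, 54.9, 57.6 and 65.9 CPM in flox replicates 1 to 5. LKO replicates 1, 5 and 6 lay above every flox liver, and LKO replicates 2 and 3 below every flox liver. Means were 74.5 ± 25.1 CPM in LKO livers and 60.1 ± 6.03 CPM in flox livers (SD, n = 7 and n = 5), with a log2 fold change of 0.31 (standard error 0.20, interval -0.13 to 0.75, adjusted p = 0.729 in edgeR). Leaving out LKO replicate 1 gave 0.18, and in that liver the 6 matched of 10 markers of erythroid cells, which are known for high Tfrc, had their highest sum, 81.7 CPM. By the mean log2 deviation of the 3 tested markers, flox replicate 1 was highest, at 0.61 against 0.34 in LKO replicate 1. Over the other livers these markers summed to 38.2 to 64.5 CPM in LKO and 31.7 to 68.6 CPM in flox, and their part in the Tfrc values was not tested. The liver with the most Tfrc was the liver with the least Hamp, so the ratio of Hamp to Tfrc in CPM was 0.994 in LKO replicate 1. It was 7.56 to 14.5 in the other LKO livers and 5.99 to 11.2 in flox livers. LKO replicate 5 was high in both genes, at 105 CPM for Tfrc and 795 CPM for Hamp.

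Slc40a1 (chr1:46869053-46888658, minus strand) encodes ferroportin, the iron exporter that hepcidin acts on, and Cp (chr3:18241816-18302448, plus strand) encodes ceruloplasmin, the plasma ferroxidase that oxidises exported iron. Slc40a1 ran from 101 through 148 to 233 CPM in LKO livers and held 159, 63.4, 142, 149 and 159 CPM in flox livers. Flox replicate 2 was lowest and LKO replicate 4 highest, and the remaining livers of both groups were interleaved. The log2 fold change was 0.13 (standard error 0.25, interval -0.40 to 0.66, adjusted p = 0.918 in edgeR), and it was -0.060 without flox replicate 2 and -0.031 without LKO replicate 4. Cp ran from 792.4 through 983 to 1090 CPM in LKO livers and held 782, 806, 1055, 1144 and 1262 CPM in flox livers. The pair of flox replicates 4 and 5 was above every LKO liver. Its log2 fold change was -0.08 (standard error 0.13, interval -0.36 to 0.19, adjusted p = 0.893 in edgeR) and 0.11 without that pair (adjusted p = 0.961).

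Fth1 (chr19:7609291-7611680, plus strand), the heavy chain that gives ferritin its ferroxidase activity, was the most abundant gene of the group. LKO livers ran from 1919 through 2185 to 2517 CPM, and flox livers held 2665, 2340, 2456, 2235 and 2310 CPM. The groups overlapped, with LKO replicates 2, 4, 6 and 7 below every flox liver and LKO replicates 1, 3 and 5 within the flox range. The log2 fold change was -0.10 (standard error 0.09, adjusted p = 0.805 in edgeR), with an interval of -0.29 to 0.09, or 0.818 to 1.06 times the flox level. Processed copies of ferritin genes are common in the mouse genome, and the handling of reads shared with them is unstated, so the Fth1 level is uncertain to that extent.

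Hmox1 (chr8:78476857-78486030, plus strand), heme oxygenase 1, which frees iron from heme and is high in macrophages that take up red cells, had the largest difference of the group. It measured 11.9, 12.3, 17.9, 8.63, 9.12, 4.71 and 12.4 CPM in LKO replicates 1 to 7 and 10.3, 5.23, 23.0, 35.7 and 36.03 CPM in flox replicates 1 to 5. Flox replicates 3, 4 and 5 were above every LKO liver, while replicates 1 and 2 lay inside the LKO range. Means were 10.98 ± 4.08 CPM in LKO livers and 22.04 ± 14.2 CPM in flox livers (SD, n = 7 and n = 5). The log2 fold change was -1.01 (standard error 0.44, interval -1.96 to -0.06), with an unadjusted p of 0.0391 and an adjusted p of 0.650 in edgeR. Without flox replicates 4 and 5, the livers with the highest macrophage marker sums, it was -0.22 (interval -1.21 to 0.77, adjusted p = 0.9752). Flox replicate 3 held 23.0 CPM of Hmox1 with the lowest macrophage marker sum of all livers, 52.1 CPM. The part of macrophages in the Hmox1 values was not tested.

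**Figure D2:**
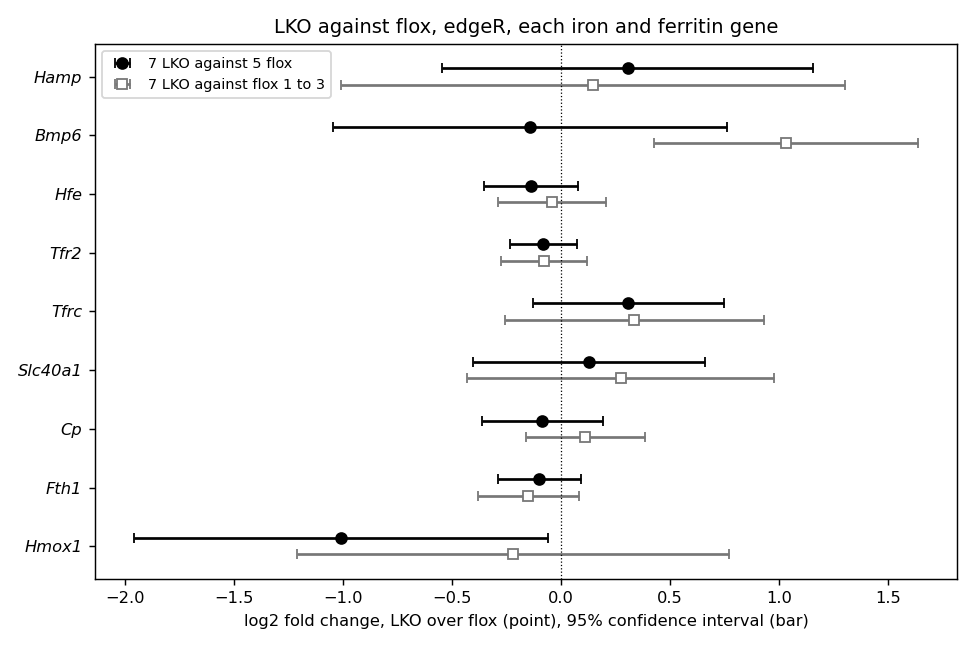
Log2 fold change of LKO over flox livers in edgeR for each iron gene, with 95% confidence intervals as bars; filled circles use all livers and open squares leave out flox replicates 4 and 5. With all livers the Hmox1 interval, -1.96 to -0.06, is the one that does not reach 0, and without the pair it is the Bmp6 interval, 0.43 to 1.64. The pair was left out for its marker sums and holds the highest Bmp6 values.

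**Figure D3:**
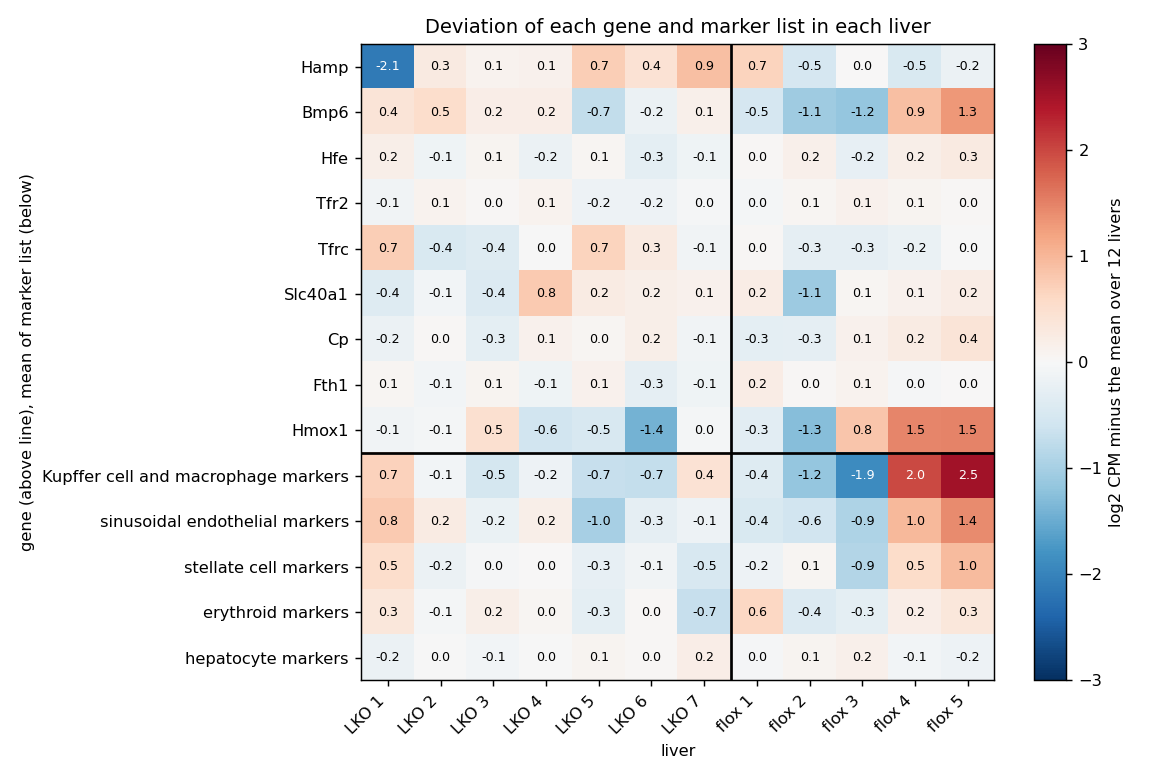
Log2 CPM of each iron gene (above the line), and mean over each marker list (below it), in each liver relative to the mean over the 12 livers; red is higher and blue lower, with LKO livers left of the vertical line and flox livers right of it. Bmp6, Cp and Hmox1 are highest in flox replicates 4 and 5, as are the Kupffer cell and macrophage, sinusoidal endothelial and stellate cell markers, and Hamp is lowest in LKO replicate 1.

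Levels were compared between genes per length, in the authors' FPKM, fragment counts scaled by gene length and library size. Fth1 was highest, at 2573 ± 251 FPKM in LKO livers and 2770 ± 193 FPKM in flox livers (SD, n = 7 and n = 5), above 99.8% of the genes tested. Hamp followed at 1402 ± 610 FPKM in LKO livers and 1138 ± 419 FPKM in flox livers. Tfr2, the receptor of sensing, averaged 130 ± 9.89 FPKM in LKO and 138 ± 5.94 FPKM in flox livers, and Tfrc, the receptor of uptake, 11.98 ± 4.04 FPKM in LKO and 9.71 ± 0.998 FPKM in flox livers. The full order was Fth1, Hamp, Tfr2, Cp, Hfe, Slc40a1, Tfrc, Hmox1 and Bmp6, the last at 1.93 ± 0.504 FPKM in LKO and 2.14 ± 1.69 FPKM in flox livers. Each gene exceeded the next in all 12 livers, except that Slc40a1 exceeded Tfrc in 10 and Tfrc exceeded Hmox1 in 8. The order of those neighbours thus varied between livers. Their median ratios were 1.64 and 2.01, and their differences were not tested. The order rests on the annotated gene lengths, which are 410 bases for Hamp, 9566 for Cp, 4336 for Tfr2, 9000 for Slc40a1, 6185 for Tfrc and 1624 for Hfe. In CPM, which is not divided by length, Cp lay above Tfr2 and Slc40a1 above Hfe. Mean CPM of Hamp, 578 in LKO and 467 in flox livers, was below that of Cp, 952 and 1010. Against Tfr2, at 565 and 598, it was higher in LKO and lower in flox livers. Mean CPM of Tfrc, 74.5 and 60.1, was above that of Hfe, 52.7 and 58.0. The ratio of Fth1 to Tfrc in FPKM was 155 to 346 in LKO livers and 250.4 to 320 in flox livers, overlapping.

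The genes of the group did not share 1 pattern over the livers. Likeness was the root mean square difference of standardised log2 CPM over the 12 livers, where 0 is an identical pattern. The nearest gene to Hamp was Star at 0.32, then Ncl at 0.36, and its nearest iron gene, Slc40a1, ranked 1788th at 1.01. Nearest to Bmp6 were Trim56 at 0.24 and Clec14a, an endothelial surface lectin, at 0.28, and nearest to Hmox1 were Fam46a at 0.34 and Raph1 at 0.37. Spsb1 and Robo2 were nearest to Hfe (0.34 and 0.37), and Anapc16 and Pcdh1 to Tfr2 (0.30 and 0.36). Capn10 and 4921524J17Rik were nearest to Slc40a1 (0.53 and 0.54), Plcl1 and Tmem71 to Cp (0.44 and 0.45), and Aven and Gdf15 to Fth1 (0.46 and 0.55). The closest pair within the group was Slc40a1 and Cp, at 0.88.

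The wider pathway was read from 7 gene lists that together held 75 tested genes, each counted once. By edgeR 0 of 75 were called, and 11, or 14.7%, had an unadjusted p under 0.05, against 7.64% of all genes tested. Of these 11, 4 turned sign without flox replicates 4 and 5: Lcn2, Cd163, G6pdx and Serpina3n. In BMP and SMAD control of hepcidin, 9 of 18 genes tested were positive and 9 negative, with a median log2 fold change of 0.00. Without the pair 10 were positive and 8 negative, with a median of 0.02. Furin, a protease that cleaves hemojuvelin, measured 458 ± 20.7 CPM in LKO livers and 516 ± 27.6 CPM in flox livers (log2 fold change -0.17, adjusted p = 0.6249 in edgeR). Neo1, which encodes the hemojuvelin-binding receptor neogenin, measured 24.1 ± 2.32 CPM in LKO and 21.2 ± 4.29 CPM in flox livers (0.19, and 0.02 without the pair). Hemojuvelin itself, listed as Hfe2, and the protease Tmprss6, which restrains hepcidin, had log2 fold changes of 0.03 and 0.12 (adjusted p = 0.969 and 0.788 in edgeR). Without the pair these were -0.08 and 0.02.

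The IL6 arm had 5 of 5 genes negative and a median of -0.18, and 2 positive and 3 negative with a median of -0.01 without flox replicates 4 and 5. Socs3, the feedback inhibitor of this arm, measured 9.29 ± 2.48 CPM in LKO and 14.8 ± 4.41 CPM in flox livers (-0.67, adjusted p = 0.619 in edgeR, and -0.34 without the pair), with 19.1 and 19.6 CPM in the pair. Stat3 measured 126 ± 18.8 CPM in LKO and 167 ± 62.8 CPM in flox livers (-0.41, and 0.04 without the pair). Acute phase genes, which share that input with Hamp, were negative in 16 of 17 tested with a median of -0.35, and positive in 14 of 17 with a median of 0.21 without the pair. Lcn2, which binds iron-carrying siderophores and belongs also to the transport list, measured 11.6 ± 6.41 CPM in LKO and 102 ± 135 CPM in flox livers (-3.14, and 0.74 without the pair). Hamp and Cp are both known to respond to this input. Neither passed the threshold with or without these livers, but that threshold compares genotypes and cannot show how the pair responded. In flox replicates 4 and 5, Hamp measured 345 and 424 CPM. These values lay above LKO replicate 1, at 110 CPM, and below the other LKO livers, at 509 to 890 CPM. Flox replicates 2 and 3, at 333 and 479 CPM, also lay below those other LKO livers. Cp measured 1144 and 1262 CPM in flox replicates 4 and 5, above every other liver. The part of this input in those values was not tested.

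Among 14 tested iron transport genes 6 were positive and 8 negative, with a median of -0.05. Without flox replicates 4 and 5, 7 were positive and 7 negative, with a median of 0.02. Steap2, a metalloreductase, measured 6.20 ± 1.89 CPM in LKO and 10.4 ± 1.31 CPM in flox livers (log2 fold change -0.75, standard error 0.21, adjusted p = 0.505 in edgeR, and -0.66 without the pair). Iron sensing and ferritin turnover had 6 of 8 positive and a median of 0.07. Without the pair 4 were positive and 4 negative, with a median of 0.005. Aco1, which doubles as iron regulatory protein 1, measured 289 ± 28.5 CPM in LKO and 257 ± 17.9 CPM in flox livers (0.17, adjusted p = 0.661 in edgeR), and Nfs1, the cysteine desulfurase of iron-sulfur cluster assembly, 63.6 ± 3.38 CPM in LKO and 59.6 ± 2.46 CPM in flox livers.

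Heme and hemoglobin handling had 5 of 12 positive and a median of -0.10, which was 0.08 without the pair. Slc48a1, a transporter that carries heme out of lysosomes, measured 79.4 ± 4.56 CPM in LKO and 92.7 ± 4.11 CPM in flox livers (-0.22, standard error 0.06, adjusted p = 0.505 in edgeR, and -0.19 without the pair). Cd163, the macrophage receptor for hemoglobin, measured 15.2 ± 5.73 CPM in LKO and 49.6 ± 57.7 CPM in flox livers (-1.71, and 0.73 without the pair). Targets of NRF2, the oxidative stress factor that also drives Hmox1 and ferritin, had 2 of 6 positive and a median of -0.06. Without the pair 2 of 6 were again positive, with a median of -0.15. Nqo1 measured 13.97 ± 2.84 CPM in LKO and 9.08 ± 1.71 CPM in flox livers (0.62, adjusted p = 0.505 in edgeR, and 0.70 without the pair), against Hmox1 with the opposite sign, and G6pdx 2.70 ± 0.707 CPM in LKO and 5.15 ± 4.13 CPM in flox livers (-0.94, and 0.28 without the pair). In 3 of the 75 pathway genes, Furin, Slc48a1 and Steap2, every LKO liver lay below every flox liver, where 0.19% of all genes tested did. The margins were narrow: the highest LKO and the lowest flox liver held 483.6 and 484.6 CPM of Furin, 87.8 and 88.2 CPM of Slc48a1, and 8.09 and 8.21 CPM of Steap2.

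**Figure D4:**
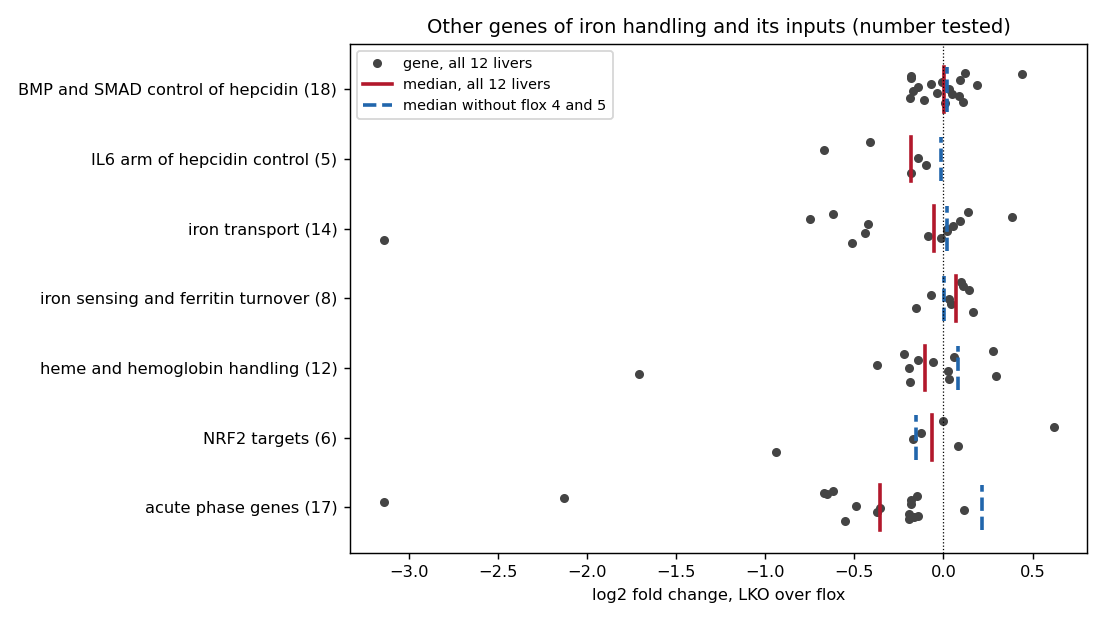
Log2 fold change of LKO over flox livers for each tested gene of the 7 lists, 1 point a gene, with the list's median over all livers (solid line) and without flox replicates 4 and 5 (dashed line). The acute phase median moves from -0.35 to 0.21 when the pair is left out, and the median of BMP and SMAD control stays near 0.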

How the data were processed

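Liver RNA of 12 mice was isolated with TRIzol and sequenced from NEBNext Ultra libraries, per the labels' protocols. The authors deposited whole-number counts per gene, and a table of FPKM values in which each count is scaled by the length of the gene and a single size per library. HISAT2 2.0.5, featureCounts 1.5.0-p3, fastp, CASAVA 1.8 and DESeq2 1.20.0 are named, without their roles, per the submitters' processing notes, as is the build GRCm39. The table carries C57BL/6NJ gene identifiers and coordinates. No source used here states the strand setting or the handling of shared reads.

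Groups were compared with edgeR 4.0.16 (glmQLFit, robust, and glmQLFTest; R 4.3.3) after filterByExpr and TMM scaling, with no covariate and Benjamini-Hochberg adjustment over all 12615 genes. CPM values use the scaled library sizes, and standard errors were derived from the F statistic. Log2 CPM used a prior count of 2. Alternatives were other scalings and filters, DESeq2 1.42.0, limma 3.58.1 (voom with quality weights, and log2 of FPKM plus 0.1 or 1), no robust estimation, a replicate block, and leaving out livers. The code was tested on simulated data. The labels list separate mice. Libraries within a group differed beyond sampling noise (at least 9.21 chi-square units for each degree of freedom), and intervals cover these livers only. The genes and lists were chosen with earlier results of these data known. List entries were matched by symbol, else by a single RefSeq synonym. Named pathway genes are the 2 with the smallest p of each list, and genes outside this rule were named after their values were seen. The genes nearest to Tfrc in pattern are not reported here.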

Additional observations from a re-analysis of the deposited data

Results flagged for a closer look

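Slc40a1 measured 63.4 CPM in flox replicate 2, on 897 counts, far from the next flox liver at 142 CPM: the gap was 0.827 of the range of the group, above the limit of 0.71 for 5 samples. On the log2 CPM scale it was at 5.99, with the next at 7.16 and a gap of 0.880 of the range. The 18 sets of livers (9 genes in 2 groups) were examined on each scale, the log2 scale after the values had been seen, and chance marks about 1 in 20. The Kupffer cell and macrophage markers summed to 88.3 CPM in this liver and to 52.1 CPM in flox replicate 3, where Slc40a1 was at 142 CPM. Their part in the low value was not tested. Hamp in LKO replicate 1 was at 6.78 on the log2 CPM scale and at 8.99 in the next LKO liver, a gap of 0.732 of the range, above the limit for 7 samples. On the linear scale, at 110 CPM, it did not pass that limit.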

How the results depend on the processing

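No iron gene passed the threshold under any of 23 other settings, with adjusted p of 0.345 to 0.999 over 207 values, of which 198 kept their sign. Turned signs were 0.16, 0.047 and 0.24 for Bmp6 with log2(FPKM + 0.1), log2(FPKM + 1) and the replicate block, and 1.03 for Bmp6 and 0.11 for Cp without flox replicates 4 and 5. With 1 liver left out, Bmp6 ranged from -0.36 to 0.29, turning without flox replicate 4 or 5, and Slc40a1 from -0.060 to 0.19, turning without flox replicate 2 or LKO replicate 4. The median of the group was 0.112 without flox replicates 4 and 5. The cause was not tested. Over all genes, DESeq2 called 26 (12 higher, 14 lower, 1 shared with edgeR), and leaving out 1 liver gave 1 to 2, the second being Ldhd without LKO replicate 7. The replicate block called 2, the second being Clec2d. The numbers showed no sign of pairing the livers. Deviations of same-numbered livers correlated at -0.29 to 0.10 across genes, over 0.1 in 1 of 5 pairs. In addition, 0 of 5 flox livers correlated best with their own number. With so few pairs this check cannot exclude a shared litter or batch. Bmp6 rested on 24 to 176 counts, and the within-group SD was 0.79 for Bmp6, 0.84 for Hamp and 0.89 for Hmox1 on the log2 scale.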

Other observations

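Further genes of the iron transport list had an unadjusted p under 0.05 in edgeR and were picked out after their values were seen. Steap3, the endosomal ferrireductase that serves transferrin uptake, had a log2 fold change of 0.39 (standard error 0.13, adjusted p = 0.6249), and 0.26 without flox replicates 4 and 5. Slc39a14, a liver importer of iron that is not bound to transferrin, had -0.42 (standard error 0.15, adjusted p = 0.6249), and -0.11 without the pair. It measured 184 to 263 CPM in LKO livers, 334 and 380 CPM in the pair and 195 to 238 CPM in the other flox livers. Transferrin itself (Trf) measured 318 to 596 CPM in LKO livers and 293 to 580 CPM in flox livers. Its log2 fold change was 0.14 (adjusted p = 0.878 in edgeR), and 0.34 without the pair.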
